A study of Mus musculus with 4 samples.

Results

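The genes described here are 10 genes of MHC class I antigen processing and presentation, B2m, H2-K1, Tap1, Tap2, Tapbp, Psmb8, Psmb9, Psmb10, Psme1 and Psme2, out of 18193 genes measured on the array. They were chosen by gene symbol. In the platform annotation 21 probe sets (groups of short probes for a transcript) carried 1 of these symbols. For 9 of the 10 genes at least 1 probe set was annotated to that gene alone, and the probe set with the highest mean over the 4 arrays represents the gene. Psme2 was measured only through a probe set that is also annotated to Psme2b, so its value is given for that shared probe set and kept out of the counts over 9 genes.

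MHC class I molecules show peptides from inside a cell to CD8+ T cells. Proteasomes cut proteins into peptides, the TAP transporter carries the peptides into the endoplasmic reticulum, and a loading complex places them on a heavy chain paired with beta-2-microglobulin, which then moves to the cell surface. Nearly all nucleated cells make class I at some level, and interferons raise the whole pathway, including an alternative set of proteasome subunits called the immunoproteasome. Endothelial and fibroblastic cells of lymph nodes can present antigen in this way as well.

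Gene expression was measured on 4 Affymetrix arrays, each with RNA from a separate preparation of mouse lymph node cells. In the metastatic group (2 preparations) the nodes drained tumours of human 293-VEGF-D cells, which overexpress the lymphatic growth factor VEGF-D, and only visibly enlarged nodes were taken. In the non-metastatic group (2 preparations) the nodes drained tumours of 293-Apex cells. All hosts were female SCID/NOD mice aged 6 to 8 weeks with the tumour under the skin of the left flank. After 3 to 4 weeks, at a tumour volume of 1600 to 2500 mm3, the axillary node was taken, and each preparation pooled the cells of 1 to 5 mice. Cells were cultured briefly and then selected for podoplanin. SCID/NOD hosts lack mature T and B cells, so the pathway is seen here without the lymphocytes it normally serves.

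Some properties of the groups bear on these genes. The growth protocol describes removal of tumour cells through human class I HLA and of leukocytes through CD16/CD32, but the sorting label gives this depletion for the metastatic preparations and says that the non-metastatic ones had none before culture. Depletion, VEGF-D and node enlargement therefore cannot be told apart from metastasis. The cells are labelled as enriched endothelium, yet the defining endothelial genes Pecam1 and Cdh5 were dim: their log2 signal was 4.76 to 5.36 and 5.32 to 6.76 over the 4 arrays, with means under the median of all probe sets (5.95). Of 7 pan-endothelial genes 4 had such a mean, while Kdr, a VEGF receptor gene, stood at 7.44 to 7.64 and Emcn, a sialomucin gene, at 5.66 to 8.77. Pdpn, whose protein was used for selection, stood at 10.35 to 10.89, and Col1a1, a fibroblast collagen, at 13.60 to 13.91. Epcam, an epithelial gene measured with a probe set that can bind several transcripts, stood at 8.09 to 8.23. It was the brightest of 6 epithelial genes, 3 of which had means under the median, among them Cdh1 at 3.57 to 3.95. The material is called lymph node stromal cells below, a term that covers endothelial and fibroblastic cells alike. In such bulk samples, fewer cells of a type and less RNA per cell cannot be told apart.

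The comparison asks whether the class I pathway differed between stromal cells of nodes that drained metastatic and non-metastatic tumours. None of the 9 genes passed limma with Benjamini-Hochberg adjustment over 45037 probe sets, and their adjusted p ran from 0.834 to 0.998. Over all genes 0% passed at an adjusted p under 0.05, and at an unadjusted p under 0.05 it was 0 of the 9 genes, where 6.70% of all genes fell under it (2.63% higher and 4.07% lower). The median difference, metastatic minus non-metastatic, was 0.18 log2 units over the 9 genes and -0.00 over all genes. Of the 9 differences, 8 were above 0 and 1 below, but the values of the 2 metastatic preparations lay so far apart that the groups overlapped for 8 of the 9. Tapbp alone was higher on both metastatic arrays than on both non-metastatic arrays, a pattern seen for 17.2% of all genes, and 0 of the 9 were lower on both, against 17.3% of all genes (34.6% in either direction). None of the 9 differed by 1 log2 unit or more, as 0.945% of all genes did. With 2 arrays in each group, the smallest p that exact two-sided permutation allows is 0.333, and so few arrays limit how precise any value can be.

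What the 9 genes shared was their top array: each had its highest signal on the array of metastatic preparation 1, as had the shared Psme2/Psme2b probe set, while 29.3% of all genes did. On metastatic preparation 2, 6 of the 9 had their lowest signal, against 24.6% of all genes. For those 6 the non-metastatic arrays lay between the metastatic ones, while B2m and H2-K1 were lowest on non-metastatic 2 and Tapbp on non-metastatic 1. The difference between the metastatic preparations was larger than the difference between the group means for 8 of the 9 genes, H2-K1 being the exception, and for 66.1% of all genes.

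**Figure D1:**
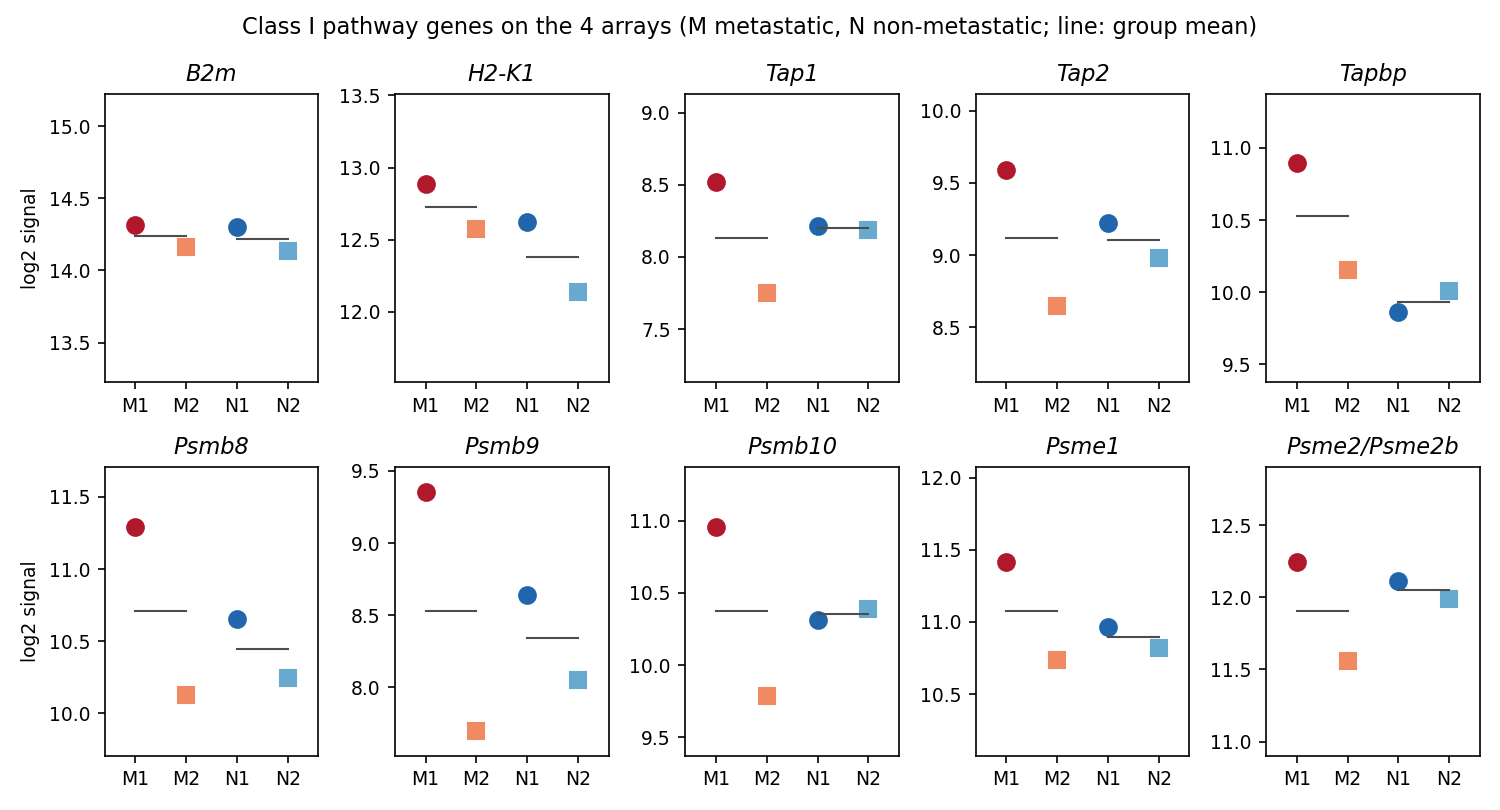
The log2 signal of each gene on the 4 arrays (M1 and M2 metastatic, N1 and N2 non-metastatic; horizontal lines are group means), with every panel spanning 2 log2 units. M1 is the highest point in all 10 panels, by little for B2m and most clearly for Psmb8, Psmb9, Psmb10 and Tapbp.

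Genome position was not used to choose the genes. Psmb9, Tap1, Psmb8 and Tap2 follow each other on mouse chromosome 17 with no other protein-coding gene between them in RefSeq (GRCm38.p6), within the MHC, where H2-K1 and Tapbp also lie. The genes in that row differed between metastatic preparations by 0.77 to 1.65 log2 units. Genes elsewhere spanned 0.15 for B2m on chromosome 2, 0.68 for Psme1 on chromosome 14 and 1.17 for Psmb10 on chromosome 8, so a wide gap was seen inside and outside the MHC.

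Promoter windows from RefSeq (GRCm38.p6, C57BL/6J; 250 bases before and 50 after each gene's start) were available for 9 of the 10 genes, Tap2 being the exception. They were searched on both strands for the core of the interferon-stimulated response element, which IRF factors bind (GAAANNGAA), and for the NF-kB consensus. These were found in 8.56% and 4.51% of 32851 promoter windows. A longer form of the first, the one first chosen, was found in 3.44% and in the same 2 of the genes described here as the shorter one. Among the 9 genes, 2 had the interferon-stimulated core, B2m and Psme1, and 2 had the NF-kB consensus, B2m and H2-K1. In B2m the interferon-stimulated match began 139 bases and the NF-kB match 126 bases before the start, without overlap. The window of H2-K1 held 2 NF-kB matches shifted by 1 base. Psmb9 and Tap1 are transcribed away from each other, and their windows shared 275 bases, with neither motif. A match is only a run of letters, and a window without one says nothing of the factor. The windows below belong to the member with the widest range (Psmb9), to the most level member (B2m) and to Psme1, which holds the other interferon-stimulated core. Capitals mark the motif matches.
Psmb9 promoter, chr17:34187281-34187580, - strand: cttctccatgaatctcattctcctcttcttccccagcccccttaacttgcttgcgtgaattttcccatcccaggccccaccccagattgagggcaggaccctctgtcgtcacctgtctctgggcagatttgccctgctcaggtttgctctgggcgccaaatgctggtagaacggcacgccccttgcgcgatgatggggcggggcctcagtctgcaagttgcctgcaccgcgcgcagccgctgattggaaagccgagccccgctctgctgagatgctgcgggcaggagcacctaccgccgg
B2m promoter, chr2:122147437-122147736, + strand: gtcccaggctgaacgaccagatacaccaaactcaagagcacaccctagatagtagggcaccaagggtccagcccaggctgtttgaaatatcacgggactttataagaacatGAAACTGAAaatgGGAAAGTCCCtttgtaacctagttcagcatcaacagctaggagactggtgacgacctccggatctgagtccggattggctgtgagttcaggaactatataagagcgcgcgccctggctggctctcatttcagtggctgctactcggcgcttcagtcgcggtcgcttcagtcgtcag
Psme1 promoter, chr14:55578244-55578543, + strand: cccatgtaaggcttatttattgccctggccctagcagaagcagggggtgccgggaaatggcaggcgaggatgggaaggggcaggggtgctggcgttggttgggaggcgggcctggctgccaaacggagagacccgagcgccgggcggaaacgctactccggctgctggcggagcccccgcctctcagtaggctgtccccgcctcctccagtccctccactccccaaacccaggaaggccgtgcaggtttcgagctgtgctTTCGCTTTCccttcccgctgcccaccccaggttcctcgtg
Over the 4 arrays the log2 signal of B2m, which lay near the upper end of the scale, varied by 0.18, and that of Psmb9 by 1.65. Whether the motifs bear on this spread was not tested.

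The surface molecule came first in signal. B2m, which encodes the light chain of every class I molecule, had a log2 signal of 14.31 and 14.16 on the metastatic arrays, against 14.30 and 14.14 on the non-metastatic arrays. All 4 values lay within 0.18 log2 units, and the mean was higher than that of 99.8% of genes, near the upper end of the array's scale, where differences can be compressed. The group difference was 0.02 (SE 0.12, 95% interval -0.29 to 0.33, limma adjusted p = 0.996), and a second probe set of B2m gave 0.02 (SE 0.13).

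H2-K1 encodes a classical class I heavy chain, the part that holds the peptide. Its signal was 12.89 and 12.57 on the metastatic arrays, against 12.63 and 12.14 on the non-metastatic arrays. Metastatic 1 was highest and non-metastatic 2 lowest, and the groups overlapped narrowly, since non-metastatic 1 lay just above metastatic 2. The difference was 0.35 (SE 0.20, 95% interval -0.15 to 0.85, adjusted p = 0.920).

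The 4 probe sets annotated to H2-K1 alone all have names that mark probes shared with other transcripts. Class I heavy chains are alike in sequence and differ between strains, and NOD mice carry another class I haplotype than C57BL/6J, so their signal cannot be assigned to H2-K1 alone. The other 3 of these probe sets stood at 0.53 (SE 0.27), 0.27 (SE 0.17) and 0.09 (SE 0.17). A probe set annotated to both H2-K1 and H2-D1 gave 0.32 (SE 0.23), and 1 annotated to both H2-Q5 and H2-K1 gave -0.04 (SE 0.16). For the dimmest H2-K1 probe set and for the H2-Q5 one, metastatic 1 was not the highest array. No probe set that could be assigned to H2-K1 without this limit was available.

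**Figure D2:**
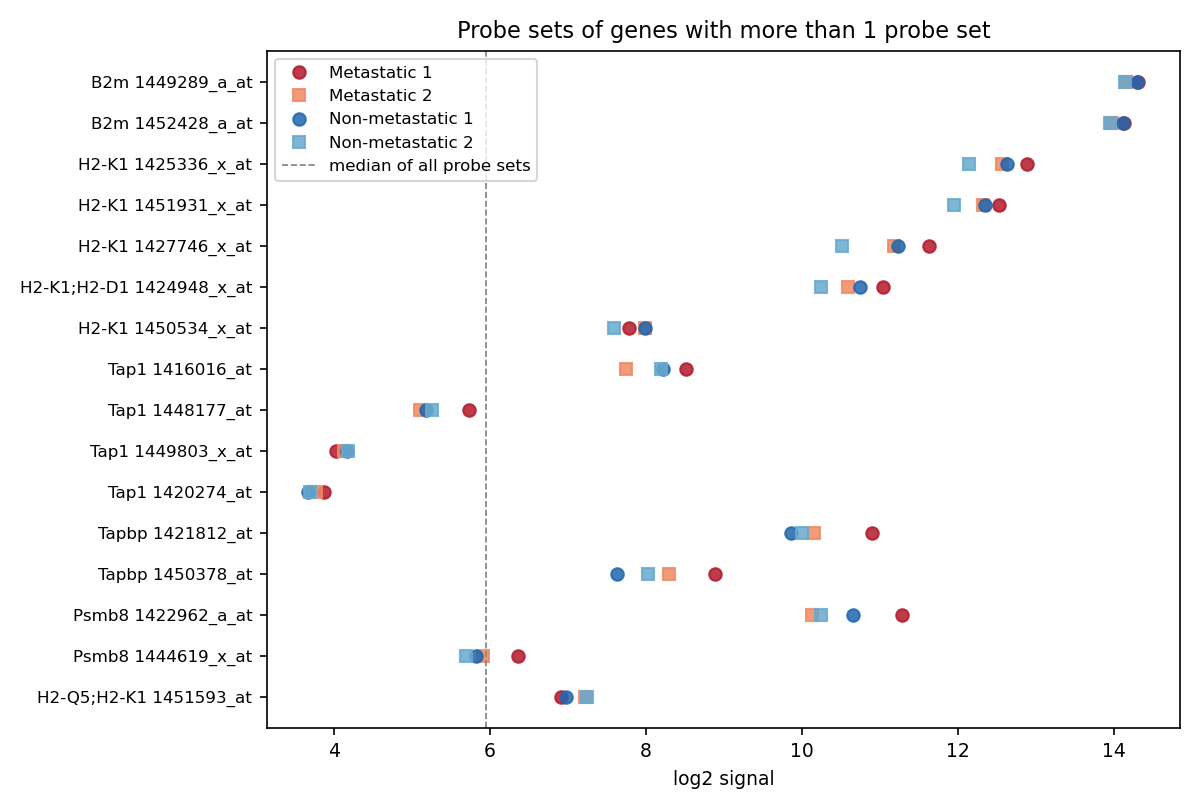
The log2 signal of every probe set of the genes with more than 1 (x axis; colours and shapes are the 4 arrays, the dashed line is the median of all probe sets at 5.95). Both Tapbp probe sets have the 2 metastatic arrays to the right of the non-metastatic ones, while the 3 dimmer probe sets of Tap1 lie under the median.

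Peptide transport and loading came next. Tap1 and Tap2 encode the paired subunits of the TAP transporter. Tap1 had 8.52 and 7.75 in the metastatic preparations, against 8.22 and 8.19 in the non-metastatic ones. The metastatic values enclosed the non-metastatic pair, which differed by 0.03, and the group difference was -0.07 (SE 0.25, 95% interval -0.69 to 0.55, adjusted p = 0.991). Of the other Tap1 probe sets, all under the median of all probe sets, the brightest (mean 5.32) stood at 0.20 (SE 0.21), and the 2 dimmest, at means of 4.13 and 3.75, had differences of -0.10 (SE 0.11) and 0.14 (SE 0.11).

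Tap2 repeated the order of Tap1, with 9.59 and 8.65 in the metastatic preparations, against 9.22 and 8.98 in the non-metastatic ones. Again the metastatic values were both the highest and the lowest. The difference was 0.02 (SE 0.31, 95% interval -0.74 to 0.77, adjusted p = 0.998).

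Tapbp encodes tapasin, which holds empty class I molecules at the TAP transporter and helps select peptides. It had 10.89 and 10.16 in the metastatic preparations, against 9.86 and 10.01 in the non-metastatic ones. Both metastatic values were above both non-metastatic values, although metastatic 2 exceeded non-metastatic 2 by little. The difference was 0.59 (SE 0.25, 95% interval -0.02 to 1.20), or 1.51-fold on the linear scale, with an unadjusted p of 0.0557 and an adjusted p of 0.834 (limma). The second probe set of Tapbp, with 8.89 and 8.29 against 7.63 and 8.03, had a difference of 0.76 (SE 0.24, unadjusted p = 0.0200, adjusted p = 0.681) and separated the groups as well. The probe sets measure the same RNA and are not separate replicates.

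The immunoproteasome subunits varied most. Psmb8, Psmb9 and Psmb10 encode the catalytic subunits that replace Psmb5, Psmb6 and Psmb7, the constitutive ones, in the proteasome core. Psmb9 had 9.35 and 7.70 in the metastatic preparations, against 8.64 and 8.05 in the non-metastatic ones. Its 2 metastatic values differed by 1.65 log2 units, or 3.14-fold, a larger excess of preparation 1 over 2 than for 99.7% of genes, and its group difference was 0.18 (SE 0.53, adjusted p = 0.989).

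Psmb8 had 11.29 and 10.12 in the metastatic preparations, against 10.65 and 10.24 in the non-metastatic ones, a difference of 0.26 (SE 0.38, 95% interval -0.68 to 1.20, adjusted p = 0.982). Metastatic 1 lay 2.24-fold above metastatic 2, which was the lowest array. The dimmer second probe set of Psmb8, marked as able to bind several transcripts, had 6.37 and 5.91 against 5.83 and 5.69, with both metastatic values above both non-metastatic ones, and a difference of 0.38 (SE 0.18, adjusted p = 0.870).

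Psmb10 had 10.96 and 9.79 in the metastatic preparations, against 10.31 and 10.39 in the non-metastatic ones. The non-metastatic pair lay within 0.08 log2 units and between the metastatic values, which were 2.26-fold apart. The difference was 0.02 (SE 0.36, 95% interval -0.88 to 0.92, adjusted p = 0.997).

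Their constitutive counterparts were level over the arrays. Psmb5 had 12.06 and 12.01 in the metastatic preparations, against 12.13 and 12.09 in the non-metastatic ones, and Psmb6 had 12.08 and 12.02, against 12.12 and 12.07. Psmb7 had 12.88 and 12.86 against 12.94 and 12.96. The group differences were -0.07, -0.05 and -0.08 (SE 0.11 each), none of which passed, and the metastatic preparations differed by 0.02 to 0.06 for these 3 genes, against 1.16 to 1.65 for the 3 immunoproteasome genes. This gap between the gene sets is a description of 2 preparations and was not tested.

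Psme1 and Psme2 encode the alpha and beta subunits of PA28, a ring that caps the proteasome and is raised by interferon gamma. Psme1 had 11.41 and 10.74 in the metastatic preparations, against 10.96 and 10.82 in the non-metastatic ones, a difference of 0.18 (SE 0.23, 95% interval -0.39 to 0.75, adjusted p = 0.975). The probe set shared by Psme2 and Psme2b had 12.25 and 11.56, against 12.11 and 11.99, a difference of -0.15 (SE 0.23, 95% interval -0.72 to 0.43, adjusted p = 0.983). In both cases metastatic 1 was highest and metastatic 2 lowest, 1.60-fold apart for Psme1 and 1.61-fold apart for the shared probe set. Psme3, which encodes a related nuclear cap that is not part of the interferon response, had 9.50 and 9.55 against 9.63 and 9.73, a difference of -0.15 (SE 0.11, adjusted p = 0.949).

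The direction of the pathway therefore depended on which metastatic preparation was compared. The counts below of genes beyond both non-metastatic arrays restate the order given above, with 9 genes highest on metastatic 1 and 6 lowest on metastatic 2. Without metastatic preparation 1, the median difference of the 9 genes was -0.32, and 6 of them lay below both non-metastatic arrays, as did 34.4% of all genes (38.8% lay above both). Tap1, Tap2 and Psmb10 then had an unadjusted p under 0.05, all 3 lower, where 6.52% of all genes were lower and 4.14% higher at that level. Without metastatic preparation 2, the median was 0.52 and all 9 genes lay above both non-metastatic arrays, as did 36.7% of all genes (40.8% lay below both). In that fit 7 of the 9, all but B2m and H2-K1, had an unadjusted p under 0.05 and were higher, against 7.55% of all genes (8.10% were lower). The smallest adjusted p of a member was 0.262 without preparation 1 and 0.123 without preparation 2, so none passed in either fit. Over all genes 0.192% passed without preparation 1 and 0% without preparation 2. H2-K1 and Tapbp kept a difference above 0 with each single array left out (0.10 to 0.59 and 0.22 to 0.96), whereas Psmb9 ranged from -0.64 to 1.01.

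**Figure D3:**
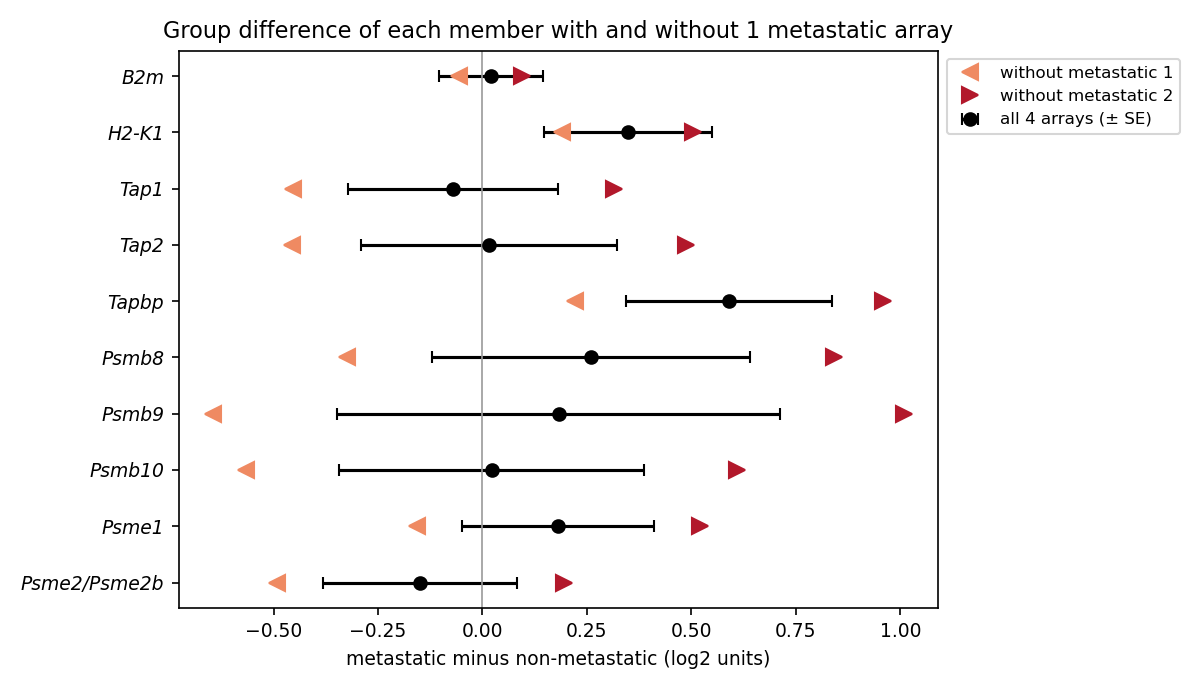
The group difference of each gene in log2 units (x axis; black points with bars are all 4 arrays ± SE, triangles leave out 1 metastatic array). For 8 of the 10 rows the 2 triangles lie on opposite sides of 0, and for H2-K1 and Tapbp both are above 0.

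The spread between metastatic preparations was compared with that of related gene lists. Preparation 1 exceeded preparation 2 for 9 of 9 members, with a median of 0.77 log2 units, and by at least 0.5 for 7 of them. Over all genes the median was -0.02, 47.0% were higher in preparation 1, and 5.60% exceeded it by at least 0.5. Between the non-metastatic preparations the median was 0.16 over the members and -0.01 over all genes, and 7 of the 9 members were higher in preparation 1. H2-K1 (0.49), Psmb9 (0.59) and Psmb8 (0.41) had the widest non-metastatic gaps, while Psmb10 and Tapbp ran the other way (-0.08 and -0.15).

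Interferon-induced genes outside the pathway spread in the same sense between the metastatic preparations. All 17 measured genes of this list (18 listed) were higher in metastatic preparation 1 than 2, by a median of 1.24 log2 units, and 15 had their highest signal there. Gbp3, a guanylate-binding protein, had 10.30 and 8.29 in the metastatic preparations, against 9.51 and 9.72 in the non-metastatic ones. Ifit3, an antiviral protein with tetratricopeptide repeats, had 12.93 and 10.68, against 11.89 and 12.12. Both were named after their values were seen. Between the non-metastatic preparations this list had a median of -0.18 and the members 0.16, so the lists did not run together there. As groups, the interferon-induced genes had 0 of 17 with an unadjusted p under 0.05, where 6.70% of all genes had, and a median difference of -0.00. Gbp2, with the smallest p of the list, stood at -0.61 (SE 0.37) and Oasl2 at 0.39 (SE 0.30), and the groups overlapped for both. Gbp2 stood at -1.20 without metastatic preparation 1 and -0.02 without preparation 2.

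**Figure D4:**
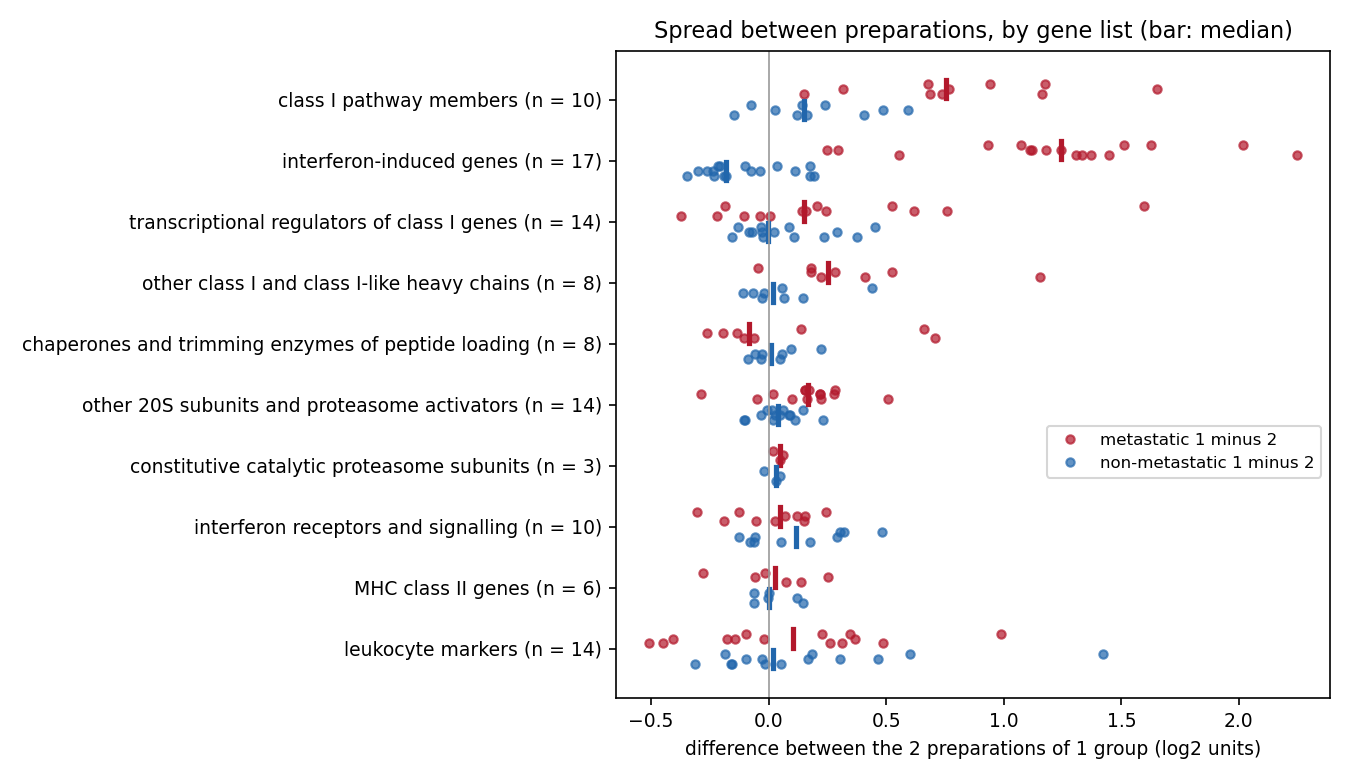
The difference between preparations 1 and 2 of the same group, in log2 units, for each gene of the named lists (red, metastatic; blue, non-metastatic; bars are medians; the members include the Psme2/Psme2b probe set). Members and interferon-induced genes lie to the right of 0 in the metastatic group, while the constitutive catalytic subunits stay near 0 in both groups.

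Regulators of class I transcription were mixed. Of 14 measured (16 listed), 0 had an unadjusted p under 0.05, where 6.70% of all genes had. In metastatic preparation 1, 9 were higher than in preparation 2, and the median group difference was 0.13. Nlrc5, the transactivator of class I genes, had 7.01 and 5.41 in the metastatic preparations, against 6.20 and 5.74 in the non-metastatic ones. Its order over the arrays was that of Psmb9, with metastatic 1 highest and metastatic 2 lowest, and its group difference was 0.24 (SE 0.50, adjusted p = 0.985). Irf1, an interferon-induced activator, had 9.44 and 9.30 against 9.14 and 9.17, with both metastatic values higher and a difference of 0.22 (SE 0.11, adjusted p = 0.902). Stat2, of the type I interferon signal, had 8.63 and 7.87 against 7.77 and 7.84, and a difference of 0.44 (SE 0.25, adjusted p = 0.916), which was 0.061 without metastatic preparation 1 and 0.82 without preparation 2.

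Of 10 interferon receptor and signalling genes, 7 had a difference above 0 and 3 below, with a median of 0.04. Ifngr2, also of the interferon gamma receptor, stood at -0.20 (SE 0.12), with both metastatic values lower. It was named after its value was seen. At an unadjusted p under 0.05, 2 of the 10 were higher and 0 lower. The kinase gene Jak1 had a difference of 0.38 (SE 0.14, adjusted p = 0.768) and Ifngr1, the ligand-binding chain of the interferon gamma receptor, 0.41 (SE 0.16, adjusted p = 0.788). Neither passed after adjustment. Over all genes 2.63% were higher at that level. The groups did not overlap for either gene, as for 17.2% of all genes. The metastatic preparations differed by 0.07 for Jak1 and 0.24 for Ifngr1, and the non-metastatic ones by 0.29 and 0.30. Without non-metastatic preparation 2 the differences were 0.23 and 0.26, with unadjusted p of 0.245 and 0.246 (limma).

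Among other class I and class I-like heavy chains, 8 of the 14 listed genes had a probe set of their own. H2-D1, a classical heavy chain whose probe set can also bind several transcripts, had 12.87 and 12.69 against 12.72 and 12.28, a difference of 0.28 (SE 0.18, adjusted p = 0.932), and its order over the arrays was that of H2-K1. Without non-metastatic preparation 2 its difference was 0.062. The brightest H2-D1 probe set without that mark stood at 0.53 (SE 0.26), and the mean of all its probe sets at 0.19 (SE 0.15). Cd1d1, which presents lipids, had 8.41 and 8.19 against 7.67 and 7.52. Both metastatic values were higher, by 0.70 log2 units (SE 0.13, unadjusted p = 0.00205, adjusted p = 0.383). It was the only 1 of the 8 with an unadjusted p under 0.05, where 2.63% of all genes were higher at that level. Its probe set is marked as able to bind several transcripts. The brightest Cd1d1 probe set without that mark stood at 0.85 (SE 0.17).

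Among 8 chaperones and trimming enzymes (9 listed), 0 had an unadjusted p under 0.05, where 6.70% of all genes had. Erap1, which trims peptides in the endoplasmic reticulum, had 8.67 and 8.02 in the metastatic preparations, against 7.97 and 7.74 in the non-metastatic ones. Both metastatic values were higher, and the difference was 0.49 (SE 0.23, adjusted p = 0.871). It was 0.16 without metastatic preparation 1 and 0.82 without preparation 2. The general chaperones of the loading complex, calreticulin (Calr), calnexin (Canx) and the oxidoreductase Pdia3, had differences of -0.02, 0.14 and 0.08 (SE 0.11 to 0.12). Of the 14 other core subunits and activators of the proteasome, 0 had an unadjusted p under 0.05, against the same 6.70% of all genes. Psme4, a further proteasome cap, had the smallest p of these at a difference of 0.28 (SE 0.14), and 12 of the 14 were higher in metastatic preparation 1 than 2, by a median of 0.17.

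Leukocytes also carry class I. The summed linear signal of 14 leukocyte markers (15 listed) was 1813 and 1766 in the metastatic preparations, against 2347 and 2280 in the non-metastatic ones. Of the 14, 3 had an unadjusted p under 0.05, all lower, where 4.07% of all genes were, and none passed after adjustment: the macrophage receptor gene Csf1r at -0.54 (SE 0.16), the lysozyme gene Lyz2 at -1.47 (SE 0.44) and Fcgr3, the CD16 gene, at -0.52 (SE 0.17). The non-metastatic preparations differed by 1.42 for Lyz2, whose difference was -0.75 without non-metastatic 1 and -2.18 without non-metastatic 2. For Fcgr3 these values were -0.29 and -0.75. The groups overlapped for 9 of the 14, while 4 were lower and 1 higher on both metastatic arrays. Over all genes 17.3% were lower and 17.2% higher in this way (34.6% in either direction). The higher 1 was Itgam, an integrin gene of myeloid cells, at 0.28 (SE 0.14, adjusted p = 0.883), chosen after its value was seen. Ptprc, which marks all leukocytes, was near the lower end of the scale on all 4 arrays (4.01 to 4.28), and 8 of the 14 had means under the median of all probe sets. Fcgr2b, the CD32 gene, stood at 8.39 to 8.90. The part of these cells in the class I group differences was not tested. Between the metastatic preparations the single markers differed by -0.51 to 0.99 log2 units, with a median of 0.10.

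MHC class II genes, which mark professional antigen-presenting cells, did not follow the members, but 3 of the 6 measured had means under the median of all probe sets. The summed linear signal of 6 genes (7 listed) was 465 and 456 in the metastatic preparations, against 487 and 479 in the non-metastatic ones. Their differences between metastatic preparations ran from -0.28 to 0.25. Of the 6, 4 had a difference above 0 and 2 below, with a median of 0.07 over the list. Against both non-metastatic arrays, 3 were higher and 2 lower on both metastatic ones, where 17.2% and 17.3% of all genes were. H2-Eb1 alone had an unadjusted p under 0.05, at -0.37 (SE 0.13, adjusted p = 0.768; limma), with both metastatic values lower. Over all genes 4.07% were lower at that level.

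Markers of stromal and epithelial cells were summed in the same way. The summed linear signal of 8 fibroblastic and mural genes (9 listed) was 67630 and 76270 in the metastatic preparations, against 79250 and 80950 in the non-metastatic ones. Of the 8, 5 had a difference below 0 and 3 above, with a median of -0.04 over the list. In this list Acta2, the smooth muscle actin gene, had the smallest p and stood at -0.53 (SE 0.20, unadjusted p = 0.0379, adjusted p = 0.774; limma). Its difference was -0.25 without metastatic preparation 1 and -0.81 without preparation 2. The sum of 7 pan-endothelial genes was 552 and 449, against 953 and 753. Of the 7, 5 had a difference below 0, with a median of -0.13 over the list, so the lower sum leans mainly on Emcn. Emcn had 6.50 and 5.66 in the metastatic preparations, against 8.77 and 8.45 in the non-metastatic ones. Both metastatic values were lower, at a difference of -2.53 (SE 0.29, adjusted p = 0.185). Lymphatic genes (5 of 6 listed) summed to 2114 and 1975, against 1756 and 1652, but that sum is mostly Pdpn, used for selection, at a difference of 0.51 (SE 0.11, adjusted p = 0.424). Lyve1, a hyaluronan receptor gene of lymphatic endothelium, had 6.32 and 4.23 in the metastatic preparations, against 8.26 and 7.80 in the non-metastatic ones. Its difference was -2.76 (SE 0.64, adjusted p = 0.498), and 3 of the 5 lymphatic genes had a difference below 0. Means under the median of all probe sets were seen for 2 of the 5, among them Prox1, at 3.74 to 4.17 over the 4 arrays. Without metastatic preparation 1 Emcn and Lyve1 stood at -2.95 and -3.80, and without preparation 2 at -2.11 and -1.71. The metastatic preparations differed by 0.84 for Emcn and 2.09 for Lyve1. For the epithelial list, in which Epcam was the brightest of 6 genes, the sums were 514 and 554, against 547 and 581. Metastatic preparation 1, with the higher class I signal, thus had a higher endothelial and a lower fibroblastic sum than preparation 2. By single genes, it was higher for 5 of the 7 endothelial and 3 of the 8 fibroblastic genes. The fibroblastic sum leans on bright genes such as Acta2, at 13.66 and 14.22 in these preparations. The part of such differences in the class I values was not tested.

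The members were also set against all other genes by their pattern over the arrays. The median profile of the 10 probe sets, each centred on its own mean, was 0.45 and -0.42 in the metastatic preparations, and 0.07 and -0.14 in the non-metastatic ones. Tap2 lay nearest to it (root mean square distance 0.03 log2 units), followed by Psme1 and Tap1 (0.10 each), and Psmb9 and Tapbp lay farthest (0.31 and 0.30). Among 11913 other genes with a signal above the median, the 6 nearest were E330013P04Rik, the transcription factor gene Nfia, the dipeptidase gene Dpep1, the carbonyl reductase gene Cbr3, Wdr5b and the guidance gene Ntn1, at distances of 0.03 to 0.04. Of the 11913, 325 (2.73%) lay nearer to the median profile than the median member did (0.16). The members themselves set that profile, so their nearness to it is partly built in, and this share is not a test of a shared pattern.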

How the data were processed

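For each of the 4 arrays the authors deposited processed log2 values, 1 for each probe set, which ran from 3.10 to 14.81. Per the labels' protocols, 3 ug of RNA was labelled with biotin and 20 ug of cRNA fragmented. Which software summarised the probes, and whether it normalized the arrays, is not given in the sources used here. The array medians differed by 0.116 log2 units, over the limit of 0.1 that was set, so the arrays were quantile normalized. After 64 control probe sets were left out, 45037 remained, without a filter on dim ones. Symbols came from the platform annotation, updated through Entrez numbers to RefSeq. The fit used limma 3.58.1 in R 4.3.3 (lmFit and eBayes, metastatic minus non-metastatic, 2 residual and 3.71 prior degrees of freedom), with Benjamini-Hochberg adjustment over all probe sets and a threshold of 0.05. Without detection calls, a dim probe set is not evidence of absence. The members, context lists and tests were chosen with earlier results of these data known. Genes named outside the members were a fixed set of pathway and marker genes, up to 3 of each list with the smallest p, and the 6 nearest profiles. Gbp3, Ifit3, Ifngr2, Itgam, Kdr and Prox1 were named outside that rule. The interferon-stimulated core was shortened by 1 letter after a longer form had been searched. A further motif named in the plan, the GAS core, is not reported. Scripts were tested on simulated data. Alternatives were the deposited values, centred medians, brighter probe sets, other probe sets for a gene, trended robust moderation, the replicate number as a block, a difference of at least 1 log2 unit in place of a p, and each array left out. Python 3.11.15 and matplotlib 3.10.9 drew the plots.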

Additional observations from a re-analysis of the deposited data

How the results depend on the processing

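No member passed the adjusted threshold under any of the 7 alternatives with a test or without any single array. The count of members with an unadjusted p under 0.05, 0 with all arrays, was 1 with a gene's probe sets averaged, 1 with trended robust moderation (Tapbp in both), 2 with the replicate number as a block (H2-K1 and Tapbp), and 0 to 7 with 1 array left out. Over all genes the shares were 6.70% with all arrays, 6.63%, 6.62% and 9.56% under those alternatives, and 3.74% to 15.6% with 1 array left out. Members whose groups did not overlap, 1 higher and 0 lower with all arrays, numbered 1 to 9 higher and 0 to 6 lower with 1 array left out. With a lone metastatic array, 34.4% to 38.8% of all genes (without preparation 1) and 36.7% to 40.8% (without preparation 2) did not overlap in a given direction. With 1 array left out the median difference ran from -0.32 to 0.52, and the context genes with an unadjusted p under 0.05 from 8 to 38 (11 with all arrays). In the same fits the differences turned sign within -0.061 to 0.10 for B2m, -0.45 to 0.31 for Tap1, -0.45 to 0.49 for Tap2, -0.32 to 0.84 for Psmb8, -0.64 to 1.01 for Psmb9, -0.57 to 0.61 for Psmb10, -0.16 to 0.52 for Psme1, -0.49 to 0.19 for the Psme2/Psme2b probe set, -0.56 to 1.04 for Nlrc5, -0.073 to 0.034 for Calr, -0.081 to 0.85 for Oasl2, -1.33 to 0.69 for Gbp3 and -1.32 to 0.93 for Ifit3. With a gene's probe sets averaged, Tap1 stood at 0.044, Calr at 0.029 and Pdia3 at -0.047; the cause was not tested. The counts of members highest on metastatic preparation 1, added after seeing the data, were 8 of 8 to 9 of 9 under 5 other choices of scaling and probe set. The replicate numbers are not stated to pair preparations. Deviations of same-numbered preparations correlated at 0.248 over all probe sets, and the replicate block called 145 probe sets, none of them a member, where the fit without it called 0; Emcn and Lyve1 passed with the block (adjusted p 0.00634 and 0.0393). Trended robust moderation called 5 probe sets, and the fit without metastatic preparation 1 called 67. Leaving out an array leaves 1 residual degree of freedom, so the group's remaining array is taken to vary as the other group does. The number of arrays and unknown detection limits bound what these values can show.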
